A study of Bos taurus with 27 samples.

Results

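Glycolysis splits glucose into pyruvate in the cytosol, and lactate dehydrogenase interconverts pyruvate and lactate. The enzyme is a tetramer of LDHA and LDHB subunits. The rumen epithelium (RE), the stratified epithelium that lines the forestomach of cattle, absorbs short-chain fatty acids made by rumen microbes and can pass lactate out of its cells through monocarboxylate transporters. The 10 enzymes described here were taken by gene name from the annotation of a custom bovine array: GPI, PFKL, ALDOA, TPI1, PGK1, PGAM1, ENO1, PKM, LDHA and LDHB. Each was represented by 1 probe of 60 bases, out of 15008 probes other than controls.

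The RE of 9 Japanese Black cattle was biopsied in the ventral sac 3 times, at 14 months (early stage of fattening), 21 months (middle) and 29 months (late), and each biopsy was measured on 1 array (27 arrays of 1 color). All 9 animals were castrated males with a rumen fistula, fed concentrate and rice straw throughout. The paper states that the amount of concentrate was raised gradually. It also reports that concentrate intake was higher at the middle than at the early and late stages. Age, diet and stage cannot be told apart. A log2 level is the log2 processed signal of a probe minus the median of its array, and a log2 change is a difference between stages within animals, from 1 limma model of all arrays with the animal as a block and Benjamini-Hochberg adjustment over 15008 probes. The first period is the middle against the early stage, the second period the late against the middle stage, and the total period the late against the early stage.

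The middle arrays were dimmer than the others, with median signals of 8.22 to 28.7 against 35.2 to 48.6 at the early and 32.2 to 47.0 at the late stage, and the array of animal 4 was the dimmest. Over all probes the median log2 change was 0.33, −0.28 and 0.03 for the first, second and total periods, and among the 6797 probes that the scanner software called well above background on all 27 arrays it was 0.08, 0.09 and 0.13. Of all probes, 66.5%, 71.5% and 20% were called changed (adjusted *P* below 0.05) in the 3 periods. The late arrays shared no slide and no scan day with those of the other stages, and 8 of 9 early arrays lay on a slide that held no other stage. The 12 listed markers of stratified epithelium were well above background on every early and late array, although the deposited extraction note names neutrophils and liver. The sum of their levels on the linear scale ran from 3119 to 4218 at the early, 992 to 4605 at the middle and 3479 to 4429 at the late stage. In bulk tissue, fewer cells of a type and less RNA per cell cannot be told apart.

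The probes do not lie at the same place in their transcripts, and the part of this in the values below was not tested. The PGK1 and GPI probes started at bases 917 and 499 of the design transcripts, and they mapped to chrX:79285359-79285418 on the minus strand and chr18:44989257-44989316 on the plus strand of bosTau6. Both are shown whole because they had the lowest start bases among the member probes designed on a reference mRNA. The PKM probe started lower, at base 188, but of a partial sequence. The probes for PFKL, PGAM1 and LDHB started at bases 2723, 1262 and 1205.
PGK1: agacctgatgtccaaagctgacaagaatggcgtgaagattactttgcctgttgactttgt
GPI: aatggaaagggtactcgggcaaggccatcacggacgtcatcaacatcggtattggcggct
The probes for ALDOA (base 1520, chr25:26470494-26470553, minus strand), TPI1 (base 1199, chr5:103942399-103942458, minus strand) and ENO1 (base 1737, chr16:45416410-45416469, plus strand) hold the letters AATAAA, the hexamer that commonly precedes the polyadenylation site at the 3′ end of an mRNA. Their last 30 bases are shown with that hexamer in capitals.
ALDOA: tccagcctactgccAATAAAcagctattta
TPI1: tgtgggggAATAAAcacctggcactgaaaa
ENO1: AATAAAaaggcctgagtgacccgtaaaaaa
Of the 15008 probes, 9.51% hold AATAAA on their own strand, 3 of the 10 member probes among them, and 3.40% hold it on the opposite strand (TTTATT), with 0 of the 10 member probes. The last 30 bases of the probes for both lactate dehydrogenase subunits and for PKM are given next, because the comparison of LDHA with LDHB and the reading of PKM rest on them.
LDHA: gcatgccatgtgctaaactgttctaaagaa
LDHB: ataagggaaagaaacaatttttcctctttt
PKM: tctcacggagtctggcaggtctgcacatca
The LDHA probe started at base 1569 and mapped to chr29:26543999-26544058 on the minus strand. The LDHB probe, at chr5:88977911-88977970, was designed on an expressed sequence tag, not on the reference mRNA, and the strand of LDHB that it reads was not checked here. The PKM probe was designed on a partial coding sequence described as the M1 type of pyruvate kinase, and its match spans 2393 bases of the genome (chr10:18967821-18970213).

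LDHB, the heart-type subunit of lactate dehydrogenase, was not well above background on any of the 27 arrays. Its processed signal ran from 1.06 to 2.07 (median 1.38) at the early, 1.08 to 5.21 (median 1.68) at the middle and 1.05 to 2.13 (median 1.40) at the late stage. The lowest signal that the scanner software called well above background was 4.36 to 7.02, 4.21 to 10.8 and 4.25 to 8.60 on the arrays of those stages. LDHB lay below that limit on 26 of 27 arrays, with animal 6 at the middle stage as the exception. No fold change between stages is therefore given for LDHB, and its changes could not be set against those of LDHA and PGK1. After division by the array median the model still called the LDHB probe higher in the first and lower in the second period, as it did 97.7% and 97.8% of the 2042 probes that were well above background on no array. The median log2 changes of those 2042 probes were 1.33 and −1.39.

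**Figure D1:**
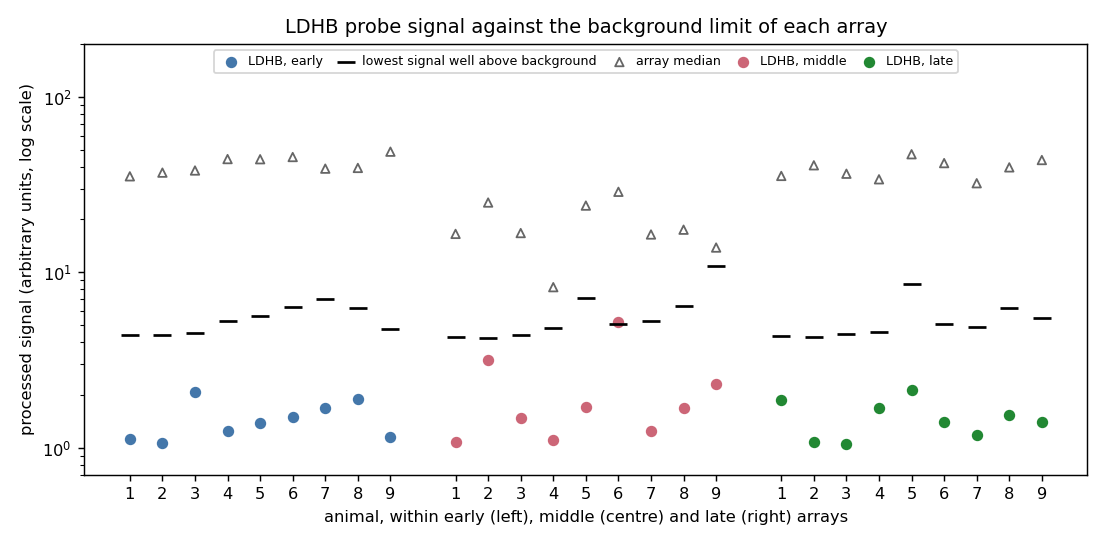
Processed signal of the LDHB probe (filled circles, log axis, arbitrary units) on each array by animal and stage, with the lowest signal called well above background on that array (bars) and the array median (triangles). LDHB stayed near 1 to 2 on most arrays at all 3 stages, while the array median was lower at the middle stage.

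The other 9 enzymes were measurable, and 8 of them, all except PKM, were well above background on all 27 arrays. In the first period 8 of the 10 member probes were called, 5 higher and 3 lower, against 66.5% of all probes (45.3% higher and 21.2% lower), and 1 of the 5 was LDHB. In the second period 5 were called, 2 higher and 3 lower, against 71.5% (26.7% higher and 44.8% lower), and LDHB was again 1 of those lower. In the total period 3 were called, 2 higher and 1 lower, against 20% (11% and 9.01%). The split moved with the scaling. First-period calls were 2 higher and 3 lower after quantile normalization, 2 and 2 after cyclic loess (an intensity-dependent scaling of the probes above background on every array) and 1 and 3 after normexp (a model-based background correction). Second-period calls were 2 and 5 with 75th percentile scaling, 3 and 3 after quantile normalization and after cyclic loess, and 5 and 2 after normexp. Read against these shares, the number of calls does not set the enzymes apart. The median change of the 9 enzymes without LDHB was 0.16, −0.10 and 0.13 in the 3 periods. What differed between enzymes was the direction, as LDHA and PGK1 fell and rose while PFKL and TPI1 did the opposite.

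**Figure D2:**
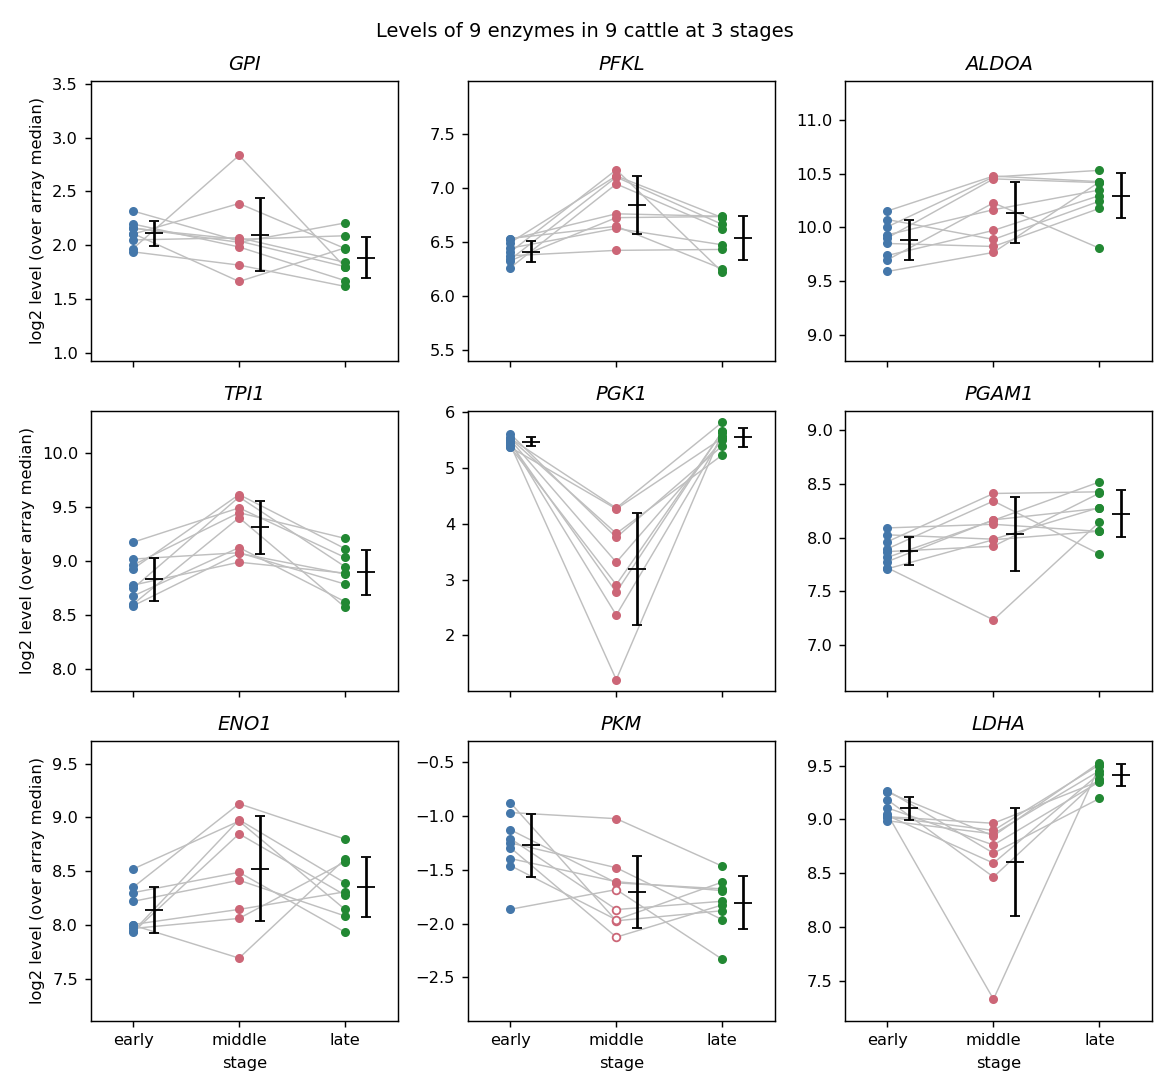
Log2 level over the array median for 9 enzymes at the early, middle and late stages. Gray lines join the 3 arrays of an animal, open circles are arrays where the probe was not well above background, and black bars are the mean ± SD of 9 cattle. Of these enzymes, only PGK1 and LDHA have middle levels that overlap neither the early nor the late levels. The same held for PDK3, TALDO1, KDM3A and SLC16A8 of the lists described below, and for probes of GAPDH, OAZ1, TUBA1B, SCAMP3 and PPP1CA. The share of all probes without overlap was not counted, so the lack of overlap does not set PGK1 and LDHA apart.

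PGK1, which makes ATP in the payoff phase of glycolysis, fell and recovered by the largest amount of the 9. Its level was 5.38 to 5.62 (median 5.47) at the early, 1.21 to 4.28 (median 3.31) at the middle and 5.24 to 5.83 (median 5.57) at the late stage. All 9 middle levels lay below all early and all late levels. The log2 change was −2.29 ± 0.26 (SE, n = 9; 4.88-fold lower, adjusted *P* = 1.17e-06) in the first and 2.37 ± 0.26 (5.17-fold higher, adjusted *P* = 3.19e-07) in the second period. In the total period it was 0.08 (adjusted *P* = 0.881, higher in 6 of 9 cattle), and no change was called. Within the first scan day, which held all 9 early arrays and the middle arrays of animals 1 to 7, the first-period change was −2.34 (adjusted *P* = 0.00109), whereas with the slide as a fixed block it was −1.50 (adjusted *P* = 0.423), and within slide 2, where 1 early array stood beside 7 middle arrays, it was −2.39 (adjusted *P* = 0.195).

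The cattle differed widely in PGK1 at the middle stage, where the SD was 1.00 against 0.079 at the early and 0.17 at the late stage. The lowest level was that of animal 4, whose array was the dimmest, and the highest that of animal 6, whose array was the brightest of the middle stage. Over the 9 middle arrays the PGK1 level rose with the log2 median signal (r = 0.84, exact permutation *P* = 0.00583, adjusted over 9 enzymes 0.0524, and rho = 0.67, exact permutation *P* = 0.0589, adjusted 0.133). Without animals 4 and 6 r was 0.48, so the relation rests on those animals. The part of array brightness in the fall of PGK1 was not tested.

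The probes most like PGK1 over the 27 arrays, by the root mean square difference of centered log2 levels among 10124 candidates, were those for TUBA1B, an alpha-tubulin (0.24), SCAMP3, a membrane protein of vesicle transport (0.26), and PPP1CA, a catalytic subunit of protein phosphatase 1 (0.27). Each fell in the first period, with log2 changes of −2.18, −2.24 and −2.63, and rose in the second, with 2.42, 2.50 and 2.74. Likeness to PGK1 on the same arrays was the rule of choice, so these directions are no separate result. None of the 3 genes codes for a glycolytic enzyme.

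LDHA, the subunit that predominates in tissues making lactate, moved in the same directions as PGK1 by smaller amounts. Its level was 8.99 to 9.27 (median 9.05) at the early, 7.33 to 8.96 (median 8.76) at the middle and 9.19 to 9.53 (median 9.43) at the late stage. The middle levels of all 9 cattle lay below every early and late level, and animal 4 was far below the rest. The change was −0.50 ± 0.15 (1.42-fold lower, adjusted *P* = 0.00651) in the first and 0.81 ± 0.15 (1.75-fold higher, adjusted *P* = 9.38e-05) in the second period. Without animal 4 these were −0.35 and 0.64 and both were still called. In the total period the change was 0.31 ± 0.15 (adjusted *P* = 0.162, higher in 8 of 9 cattle), and leaving out animal 4 brought it past the threshold (0.29, adjusted *P* = 0.0342), as did the methods' t-test (adjusted *P* = 0.00622) and a fit of only those 2 stages (adjusted *P* = 0.0118). Within the first scan day the first-period change was −0.57 (adjusted *P* = 0.0338), with the slide as a fixed block −0.14 (adjusted *P* = 0.914), within slide 2 −0.48 (adjusted *P* = 0.664) and with a random slide block −0.43 (adjusted *P* = 0.139).

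PFKL, the liver-type subunit of the phosphofructokinase that commits sugar to glycolysis, and TPI1, which interconverts the triose phosphates, moved the other way. PFKL had levels of 6.26 to 6.53 (median 6.41) at the early, 6.42 to 7.17 (median 6.76) at the middle and 6.22 to 6.74 (median 6.62) at the late stage, and it was higher at the middle than at the early stage in 9 of 9 cattle, though the ranges overlapped. Its change was 0.43 ± 0.11 (adjusted *P* = 0.00223) in the first and −0.31 ± 0.11 (adjusted *P* = 0.0195) in the second period, but after normexp background correction the values turned to −0.05 (adjusted *P* = 0.852) and 0.41 (adjusted *P* = 0.140). TPI1 went from 8.58 to 9.17 (median 8.78) at the early to 8.99 to 9.62 (median 9.40) at the middle and back to 8.57 to 9.21 (median 8.89) at the late stage. It rose in all 9 cattle in the first period, by 0.48 ± 0.099 (adjusted *P* = 0.00034), and fell in all 9 in the second, by 0.42 ± 0.099 (adjusted *P* = 0.000926), except that normexp gave −0.13 (adjusted *P* = 0.693) and 0.40 (adjusted *P* = 0.192). With the slide as a fixed block neither first-period rise was called (0.43 for PFKL, adjusted *P* = 0.522, and 1.09 for TPI1, adjusted *P* = 0.0727), nor within slide 2 (0.37 and 0.75, adjusted *P* = 0.619 and 0.284), and PFKL was not called within the first scan day (0.34, adjusted *P* = 0.0581). Over the 9 middle arrays both levels were lower on brighter arrays by the log2 median signal, with r = −0.71 and rho = −0.78 for PFKL (exact permutation *P* = 0.0263 and 0.0172, adjusted over 9 enzymes 0.0755 and 0.0642) and r = −0.73 and rho = −0.77 for TPI1 (exact permutation *P* = 0.0211 and 0.0214, adjusted 0.0755 and 0.0642). Neither relation passed after adjustment, and without animals 4 and 6 r was −0.80 and −0.64. The second-period call of PFKL was lost without animal 9 (−0.23, adjusted *P* = 0.0650). Neither enzyme was called in the total period.

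ALDOA, which cleaves fructose bisphosphate, was the enzyme that ended highest above its early level. It lay at 9.59 to 10.15 (median 9.90) at the early, 9.77 to 10.48 (median 10.16) at the middle and 9.81 to 10.53 (median 10.35) at the late stage. The late level exceeded the early level in 9 of 9 cattle, by 0.41 ± 0.11 (1.33-fold, adjusted *P* = 0.00964), a call lost in 2 of 12 other settings. The first-period change of 0.25 ± 0.11 was only just called (adjusted *P* = 0.0410), and it was 0.01 after quantile normalization, 0.06 after cyclic loess and −0.24 after normexp, none of them called. It also lost its call without any 1 of animals 1, 3, 5, 7, 8 and 9. PGAM1, the phosphoglycerate mutase, was 0.35 ± 0.12 higher at the late than at the early stage (adjusted *P* = 0.0460, higher in 7 of 9 cattle). That call was lost in 8 of 12 other settings and without any 1 of animals 1, 3, 5, 6, 7 and 8. Its second-period change of 0.19 (adjusted *P* = 0.165) was called without animal 9 (0.27, adjusted *P* = 0.0420). ENO1, an enolase that forms phosphoenolpyruvate, changed by 0.39 ± 0.16 in the first period (adjusted *P* = 0.0413), was −0.22 after normexp, and lost its call without any 1 of animals 1, 2, 5, 6 and 7.

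GPI, the isomerase of glucose phosphate, was not called in any period with the array median as the scale. Its level was 1.94 to 2.32 (median 2.11) at the early, 1.66 to 2.83 (median 2.04) at the middle and 1.62 to 2.21 (median 1.84) at the late stage. The changes were −0.01 ± 0.12, −0.21 ± 0.12 and −0.23 ± 0.12 (adjusted *P* = 0.926, 0.131 and 0.217). Other settings did call it. Its second-period value was −0.39 with 75th percentile scaling (adjusted *P* = 0.0130), −0.35 after quantile normalization (adjusted *P* = 0.0274) and −0.34 after cyclic loess (adjusted *P* = 0.0182), but 0.24 after normexp (adjusted *P* = 0.0363), and normexp gave −0.35 in the first period (adjusted *P* = 0.00580). A fixed slide block gave −1.09 in the first period (adjusted *P* = 0.0908), and the methods' t-test called the total period (adjusted *P* = 0.0321). PKM, which ends glycolysis by forming pyruvate, was the dimmest of the 9, and it was well above background on 9 early, 4 middle and 9 late arrays. Its level was −1.87 to −0.88 (median −1.25) at the early and −2.33 to −1.47 (median −1.79) at the late stage, lower in 9 of 9 cattle by 0.53 (SE 0.12, adjusted *P* = 0.00490). The total-period call was lost after quantile normalization (−0.44, adjusted *P* = 0.187), after normexp (−0.12, adjusted *P* = 0.196) and with a random slide block (−0.55, adjusted *P* = 0.307). The first-period change of −0.43 (adjusted *P* = 0.00485) rests on the 4 middle arrays above background and 5 that were not, and after normexp it was 0.09. Over the 9 middle arrays its level also rose with array brightness (rho = 0.87, exact permutation *P* = 0.00451, adjusted 0.0406, and r = 0.71, exact permutation *P* = 0.0353, adjusted 0.0755), and r was 0.83 without animals 4 and 6. Whether the probe also reads the other splice form of PKM was not tested.

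**Figure D3:**
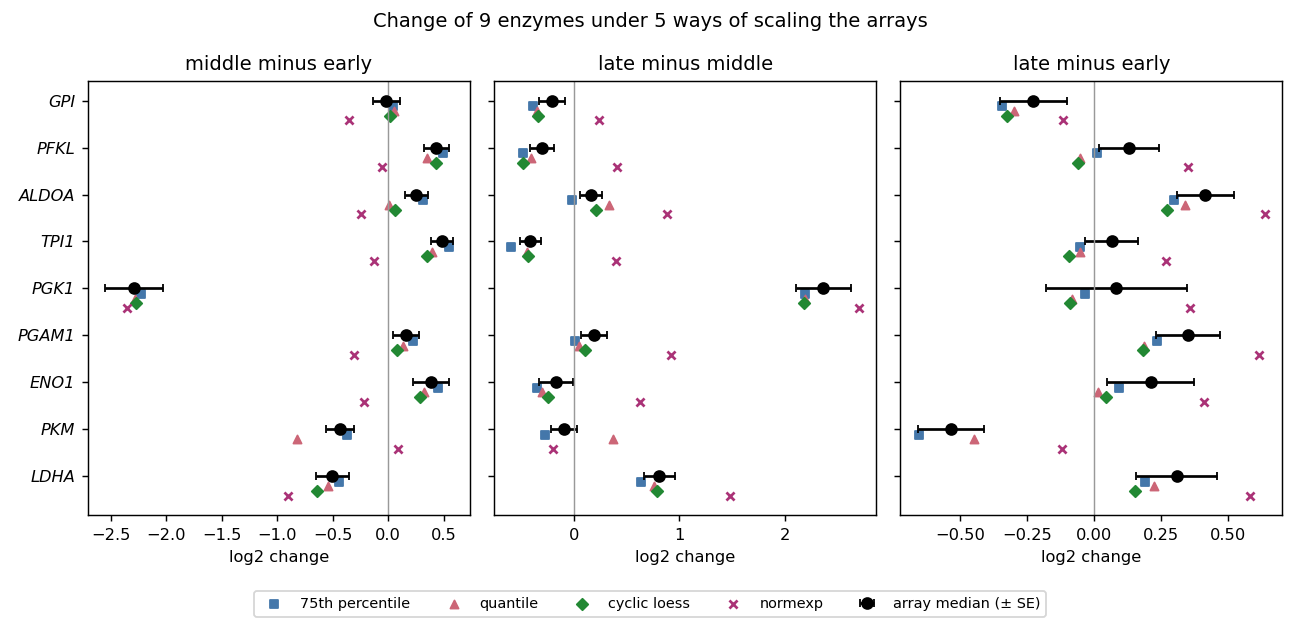
Log2 change of 9 enzymes in the 3 periods under the array median (black, ± SE of 9 cattle) and under 75th percentile, quantile, cyclic loess (PKM not included) and normexp settings. PGK1 and LDHA keep their direction in the first 2 panels, while PFKL, TPI1, ENO1, ALDOA, PGAM1 and PKM cross 0 under normexp in the first panel.

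The scaling of an array cancels in a difference between probes of that array. LDHA was therefore set against each of the other 7 enzymes that were well above background on all 27 arrays. Exact sign-flip permutation tests over 9 cattle were 2-sided and adjusted over 21 comparisons, with 0.00391 as the smallest *P* that 9 cattle allow. The contrasts were chosen after the changes of the single enzymes had been seen, so the tests partly restate those changes. No slide block was applied to the differences. In the first period LDHA changed by less than PGK1 fell, with a difference of 1.78 ± 0.69 (SD, n = 9), 0.76 to 2.98 in single animals and positive in 9 of 9 (exact *P* = 0.00391, adjusted 0.00684). Against the other 6 its change was lower, from −0.99 ± 0.62 against TPI1 and −0.94 ± 0.58 against PFKL to −0.49 ± 0.73 against GPI. It was lower in 9 of 9 cattle for each of those 6 (exact *P* = 0.00391, adjusted 0.00684), except GPI with 7 of 9 (exact *P* = 0.0508, adjusted 0.0592), which passed without animal 6 or animal 9.

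The second period mirrored this order. LDHA rose by more than each of the 6, from 0.62 ± 0.30 against PGAM1 to 1.23 ± 0.62 against TPI1 (adjusted *P* of 0.00684 or 0.0103 from exact tests), and by less than PGK1, with a difference of −1.56 ± 0.66 (exact *P* = 0.00391, adjusted 0.00684). In the total period LDHA gained 0.53 ± 0.18 on GPI in 9 of 9 cattle (exact *P* = 0.00391, adjusted 0.00684). It gained 0.24 ± 0.14 on TPI1 and 0.23 ± 0.19 on PGK1, each in 8 of 9 (exact *P* = 0.00781, adjusted 0.0103), and 0.18 ± 0.23 on PFKL (exact *P* = 0.0391, adjusted 0.0483), the last of which was lost without any 1 of animals 1, 4, 5, 6, 7, 8 and 9. The differences from ALDOA, PGAM1 and ENO1 did not pass the test (exact *P* = 0.145, 0.535 and 0.426), and the early-to-late values of single animals ran from −0.37 to 0.22, −0.34 to 0.38 and −0.42 to 0.70.

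**Figure D4:**
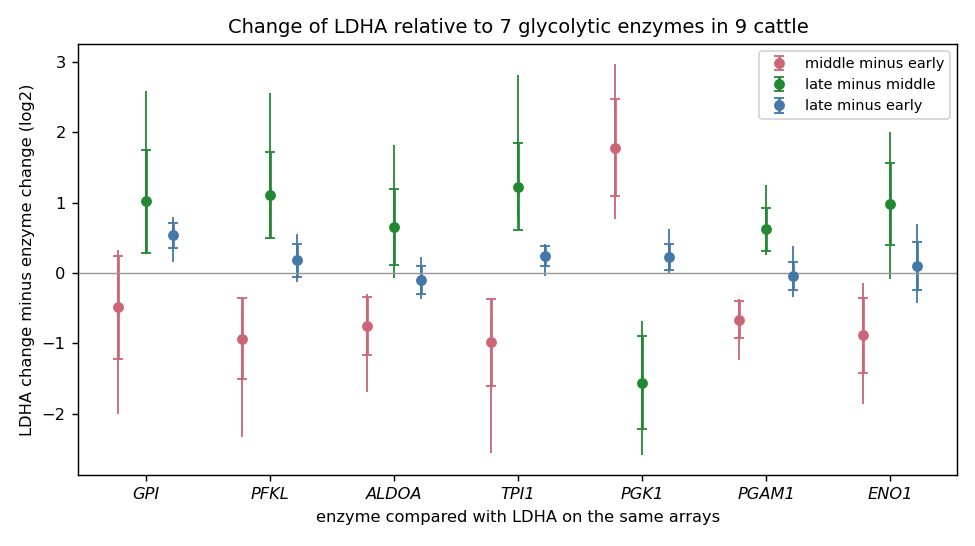
Change of LDHA minus the change of each of 7 enzymes on the same arrays (log2), with the mean and SD (capped bars) and the range (thin lines) of 9 cattle for each period. LDHA lay 1.78 above PGK1 in the first period and below the other 6 on average, and both orders turned in the second period.

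GAPDH, the dehydrogenase between TPI1 and PGK1 in the pathway, had 8 probes, each printed in 5 or 6 spots and well above background on all arrays, and their changes depended on where they lay. In the first period the 4 probes that started at bases 176, 454, 456 and 459 fell, by 1.28, 1.36, 1.47 and 1.35 on the log2 scale (largest adjusted *P* = 1.10e-05). Those at bases 972 and 989 changed by −0.04 and −0.000175 (adjusted *P* = 0.812 and 0.999). Those at bases 1185 and 1209 rose, by 0.70 and 0.63 (adjusted *P* = 1.97e-05 and 5.41e-05). The middle levels of all of the first 4 lay below their early levels, and those of the last pair above. The probes nearest each end are shown, the first whole (chr5:104239604-104239754, minus strand, spanning an intron) and the last by its final 30 bases (chr5:104237706-104237765, minus strand) with AATAAA in capitals.
GAPDH base 176: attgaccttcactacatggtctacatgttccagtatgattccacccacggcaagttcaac
GAPDH base 1209: catcAATAAAagtaccctatacccaaaaaa
The second period gave changes of 1.68, 1.34, 1.55 and 1.62 for the first 4 probes, 0.60 and −0.08 for the middle pair, and −0.80 and −0.24 for the last pair (−0.24 with adjusted *P* = 0.0509). So the 8 probes of 1 mRNA gave opposite directions. The 3 probes at bases 454 to 459 overlap and are not independent. The first 4 probes were also dimmer, with mean early levels of 3.92 to 5.67 against 7.47 to 9.54 for the rest. Position and signal level cannot be told apart here.

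**Figure D5:**
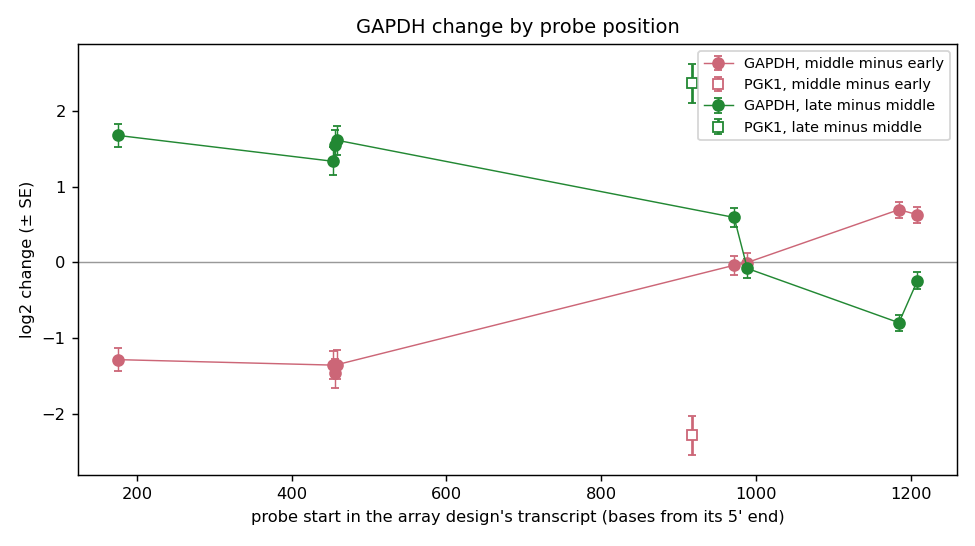
Log2 change (± SE, n = 9 cattle) of 8 GAPDH probes against the base of the design transcript where each starts, for the first and second periods, with the PGK1 probe as open squares at base 917. GAPDH changes went from −1.28 at base 176 to 0.63 at base 1209 in the first period.

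Besides GAPDH, 2 genes had probes on 1 transcript at least 300 bases apart and well above background on all arrays. ACTB, a cytoplasmic actin, changed in the first period by −0.74 and −1.14 at bases 320 and 931 and by 0.61 and 0.64 at bases 1587 and 1780. OAZ1, the ornithine decarboxylase antizyme, fell at both of its positions, by 1.35 at base 556 and 1.14 at base 1102. Over the same 6797 probes, the 971 that hold AATAAA had a median first-period change of 0.18, with 14.4% called lower and 39.9% higher. The 5826 without it had a median of 0.05, with 29.0% called lower and 34.1% higher. In the second period the medians were 0.01 and 0.10. ALDOA, TPI1 and ENO1 are among the probes with the hexamer. PGK1 and LDHA, which fell in the first period, are among those without. So are PFKL, which rose by 0.43, and PGAM1, with 0.16 and not called. GPI, at base 499 and also without it, had a first-period value of −0.01 that was not called, or −0.35 and called after normexp (adjusted *P* = 0.00580). The part of probe position in the changes of PGK1, LDHA and the other enzymes was not tested.

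The genes that feed, branch from or regulate glycolysis were read from 7 lists. Of their 65 measured genes, those with a signal well above background on every array of at least 1 stage, 12 were called higher and 27 lower in the first period, with a median change of −0.27, against 30.9% and 30.8% of the 10165 probes that met this limit and their median of 0.01. In the second period 31 were higher and 11 lower (median 0.33, against 38.6%, 28.1% and 0.13), and in the total period 11 were higher and 4 lower (median 0.06, against 15.2%, 8.98% and 0.10). With 75th percentile scaling the splits were 26 to 16 in the second and 6 to 5 in the total period, and after cyclic loess 7 to 5 in the total period. A fixed slide block left 2 first-period calls in place of 39, and a random one 1 total-period call in place of 15.

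Other enzymes of glycolysis and their isoenzymes were split. Of 17 measured genes 5 rose, 5 fell and 7 were not called in the first period, and 7 rose and 3 fell in the second. These counts stand against the shares of measured probes given above. HK1, the hexokinase that starts the pathway, fell by 0.42 (adjusted *P* = 0.00457, lower in 9 of 9 cattle) and then rose by 0.64 (adjusted *P* = 9.27e-05), with its late levels above all middle levels. PFKP, the platelet-type phosphofructokinase, rose by 0.97 (adjusted *P* = 9.39e-05) and fell by 1.47 (adjusted *P* = 6.60e-07), and it ended 0.50 below its early level (adjusted *P* = 0.0462), a call lost in 4 of 12 other settings and without any 1 of animals 1, 2, 3, 4, 5, 6 and 8. So PFKP and PFKL moved in the same directions, and HK1 moved as LDHA did. PFKM, the muscle type, gave 1.18 and −1.43 (adjusted *P* = 0.000953 and 0.000123) but was well above background on 6 of 9 arrays of each stage. Of the measured genes, PGM2, a phosphoglucomutase, had the largest rise of the first period (1.12, adjusted *P* = 5.79e-06). ADPGK, the ADP-dependent glucokinase, had its largest fall (−1.91, adjusted *P* = 5.56e-06) and the largest rise of the second period (1.68, adjusted *P* = 1.16e-05), but 2 of its 9 middle values were well above background. LDHAL6B, a relative of LDHA, was 0.57 higher in the total period (adjusted *P* = 0.0141), a call lost in 4 of 10 other settings.

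Among the lactate and glucose transporters, 7 of 12 were measurable. Of these, 2 were higher and 3 lower in the first and again in the second period, against the shares of measured probes given above. SLC16A1 (MCT1), which carries lactate with a proton, was not called in any period, with changes of 0.30, −0.25 and 0.05. SLC16A3 (MCT4), the transporter of cells that export lactate, was 0.36 lower in the first period (adjusted *P* = 0.0374), a call lost in 11 of 14 other settings and without any 1 of animals 1, 3, 4, 5, 8 and 9, and 0.64 lower in the total period (adjusted *P* = 0.00467, lower in 9 of 9 cattle). BSG, the chaperone (basigin) that brings both to the membrane, fell by 1.17 (adjusted *P* = 2.86e-05) and then rose by 1.26 (adjusted *P* = 7.70e-06). SLC16A8 (MCT3) rose by 1.71 (adjusted *P* = 3.09e-07) and fell by 3.23 (adjusted *P* = 4.07e-11), to end 1.52 below its early level (adjusted *P* = 5.53e-06), with no overlap of levels between any of the stages.

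The lists of pyruvate use, sugar branches and regulators gave these values. Of all measured probes, 30.9% were called higher and 30.8% lower in the first period, and 38.6% and 28.1% in the second. Of 7 measured genes of mitochondrial pyruvate entry 2 rose and 3 fell in the first period, and PDK3, a kinase that switches off pyruvate dehydrogenase, fell by 1.78 (adjusted *P* = 6.71e-07), rose by 2.44 (adjusted *P* = 5.93e-09) and ended 0.66 higher (adjusted *P* = 0.0209), the last a call lost without any 1 of animals 2, 5 and 6. PDHA1, a subunit of pyruvate dehydrogenase, rose by 1.09 in the first period (adjusted *P* = 1.69e-05), and PC, pyruvate carboxylase, fell by 1.31 in the second (adjusted *P* = 1.47e-06). PC was well above background on 8 of 9 middle arrays, and its median processed signal before scaling was 23.7 (middle) and 29.1 (late). The part of the array scaling in its fall was not tested. Of 7 enzymes of the pentose phosphate pathway 4 fell and 0 rose in the first period and 4 rose and 0 fell in the second, led by the transaldolase TALDO1 (−1.47 and 1.42, adjusted *P* = 2.40e-06 and 1.64e-06). In gluconeogenesis FBP1, a fructose bisphosphatase, was the called gene with the largest change in both periods (−1.06 and 1.59, adjusted *P* = 9.76e-05 and 7.97e-07), and FBP2 was 0.70 higher in the total period (adjusted *P* = 0.00314).

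Of 14 hypoxia-responsive genes 7 fell and 1 rose in the first period, and 7 rose and 1 fell in the second, against the shares of measured probes given above. CA9, a carbonic anhydrase and 1 of the 7 in both periods, was well above background on 3 of 9 middle arrays. KDM3A, a histone demethylase, had the largest values (−1.60 and 2.08, adjusted *P* = 2.73e-05 and 8.40e-07), and P4HA2, a collagen prolyl hydroxylase, was the 1 that moved the other way (0.66 and −0.67, adjusted *P* = 0.0007 and 0.000425). ANKRD37 was 0.66 higher in the total period (adjusted *P* = 0.0380), a call lost in 7 of 12 other settings and without any 1 of animals 1, 3, 4, 5, 7 and 8. Of 10 measured regulators 2 rose and 4 fell in the first period and 5 rose and 2 fell in the second. PFKFB4, which sets the level of an activator of phosphofructokinase, fell by 1.54 in the first period (adjusted *P* = 2.66e-05) with 3 of 9 middle arrays well above background. EGLN1 and EGLN2, oxygen-sensing prolyl hydroxylases, went opposite ways in the second period (1.36 and −1.38, adjusted *P* = 2.59e-07 and 0.00025). EGLN2 had risen by 1.19 in the first (adjusted *P* = 0.0012), and EGLN1 ended 0.68 higher (adjusted *P* = 0.00290). EGLN2 was dim, with median processed signals of 15.6 (early), 17.1 (middle) and 12.1 (late), and 7 of 9 middle arrays were well above background. The 2042 probes well above background on no array had median changes of 1.33 and −1.39 in the first 2 periods. The part of the array scaling in the EGLN2 values was not tested.

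Markers of other cell types were read beside these values. Of the 12 stratified epithelium markers 2 were called higher and 6 lower in the first period, and 3 higher and 2 lower in the second. Of 8 fibroblast markers 2 were higher and 1 lower in the first period and 1 higher and 5 lower in the second. The markers of both lists were all measured. The shares of measured probes were 30.9% higher and 30.8% lower in the first period, then 38.6% and 28.1%. The summed fibroblast level was 104 to 762 at the early, 114 to 1030.0 at the middle and 88.5 to 423 at the late stage. Smooth muscle sums were 61.3 to 229, 47.3 to 542 and 70.0 to 117, with 2 of 7 markers well above background on all arrays of each stage. Endothelial sums were 35.5 to 69.6, 45.6 to 98.2 and 47.7 to 76.1, leukocyte sums 36.4 to 74.9, 34.3 to 59.8 and 42.5 to 77.8, and red blood cell sums 39.3 to 68.7, 105 to 197 and 45.4 to 90.8. The red blood cell sum alone did not overlap between the middle and the other stages, and 2 of its 7 markers were well above background on all arrays of each stage, whereas HBB, ALAS2 and SLC4A1 were so on none of the middle arrays. CDH5, which defines endothelium, was well above background on no array. The part of these markers in the changes of the enzymes was not tested.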

How the data were processed

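RNA of 27 RE biopsies was labeled with cyanine 3 by the authors and scanned, and Agilent Feature Extraction gave the deposited processed intensity of each spot after background subtraction. The submitters' processing notes and the methods name version 9.5, the file headers 11.0.1.1. The log2 values of the series matrix, deposited by the authors as well, are the processed signals centered near the 75th percentile of an array, and they served as an alternative only. Probe positions are those of the array annotation (bosTau6), and no genome was used.

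The median over spots other than controls was subtracted from each array on the log2 scale, in place of the per-chip division by the median in the methods, outlier spots were left missing, and spots of a probe were averaged. limma 3.58.1 in R 4.3.3 fitted stage and animal over all 27 arrays. The animals pair the arrays, since the same 9 cattle were biopsied (mean correlation of deviations 0.158 within and −0.020 between animals). The p-values rest on 9 animals and on signal over background. The script was tested on simulated data.

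The enzymes, gene lists and tests were chosen with earlier results of these data known. Named genes were every member, all GAPDH probes, the monocarboxylate transporters SLC16A1 and SLC16A3, HK1, PFKM and PFKP, and the called gene of each list with the largest rise and fall. By that rule SLC2A2, LDHC, PGAM2, PDP1, PDK2, G6PC and VHL were also named, but none had a stage with all 9 arrays well above background, so the next gene was taken and no value is given. HK2, MPC1 and MPC2 were not found by name. The planned contrasts of LDHB with LDHA and PGK1 could not be measured, because the LDHB probe was not above background, and the contrasts of LDHA with 7 enzymes and the reading of GAPDH by position were chosen after the data had been seen. Alternatives are given with the closing observations.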

Additional observations from a re-analysis of the deposited data

Results flagged for a closer look

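In 27 groups of 9 levels (9 enzymes at 3 stages), 3 had a lowest animal separated from the next by more than Dixon's 95% critical value, a rule that chance meets in about 1 of 20 groups. LDHA at the middle stage was 7.33 in animal 4, with the next animal at 8.46. PGAM1 at the middle stage was 7.23 in animal 4, with the next at 7.92. ALDOA at the late stage was 9.81 in animal 9, with the next at 10.18. The middle array of animal 4 had the lowest median signal of the 27 (8.22), and the late array of animal 9 was the only one on its slide. Their part in these values was not tested. Without animal 4 the first-period change of LDHA was −0.35, and without animal 9 the total-period change of ALDOA was 0.45.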

How the results depend on the processing

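The first-period fall and second-period rise of PGK1 and LDHA kept their direction in every alternative run, with PGK1 at −2.43 to −1.50 and LDHA at −0.91 to −0.14 in the first period. LDHA minus PGK1 was 1.45 to 1.78, −1.56 to −1.22 and 0.22 to 0.31 in the 3 periods over the scaling alternatives and passed the test each time, as it did without any 1 animal (1.64 to 1.91, −1.67 to −1.43 and 0.17 to 0.25). The animal block pairs the arrays of an animal, and without it 7, 5 and 2 member probes were called, against 8, 5 and 3 with it. Leaving out 1 animal gave 6 to 8, 5 and 2 to 4. The first-period calls numbered 5 after quantile normalization, 4 after cyclic loess (of 8 probes), 4 after normexp, 5 with a random and 1 with a fixed slide block, and 0 within slide 2, where limma gave 2 an unadjusted *P* under 0.05. The total-period calls numbered 1 after quantile normalization, 1 after cyclic loess, 0 after normexp and 0 with a random slide block (3 and 1 at an unadjusted *P* under 0.05 in limma), and 5 by the methods' t-test. Of the genes of the 7 lists, 39 first-period calls became 23 with a random slide block, 2 with a fixed one and 0 within slide 2 (10 at an unadjusted *P* under 0.05 in limma), and 15 total-period calls became 9 after quantile normalization, 7 after normexp and 1 with a random slide block. Of all probes, 9984 first-period calls became 1255 with a fixed slide block and 7 within slide 2, and 2999 total-period calls became 248 with a random one, 1195 after normexp, 4465 by the methods' t-test and 4760 with only the 2 stages compared. Filters that leave fewer probes to test gave 6363, 6883 and 2852 calls (above background throughout at least 1 stage, against 9984, 10727 and 2999), 4517, 4847 and 1953 (on all arrays) and 4403, 4785 and 1983 (cyclic loess).

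After normexp the sign turned in the first period for PFKL (−0.055), TPI1 (−0.13), SLC16A1 (−0.19), ALDOA (−0.24), PGAM1 (−0.31), ENO1 (−0.22) and PKM (0.088), and in the second for PFKL (0.41), TPI1 (0.40), SLC16A1 (0.46), ENO1 (0.63), GPI (0.24, then called) and P4HA2 (0.032). With 75th percentile scaling, the series matrix and only probes above background on all arrays, in that order, it turned for GPI in the first period (0.047, 0.050 and 0.039), ALDOA in the second (−0.020, −0.020 and −0.024), and TPI1 (−0.052, −0.049 and −0.064), PGK1 (−0.035, −0.032 and −0.047) and SLC16A1 (−0.065, −0.062 and −0.077) in the total period. Quantile normalization and cyclic loess turned GPI in the first (0.056 and 0.017) and PFKL (−0.054 and −0.062), TPI1 (−0.053 and −0.092), PGK1 (−0.081 and −0.090) and SLC16A1 (−0.13 and −0.14) in the total period, and quantile normalization also turned PKM in the second (0.37) and LDHA minus PGAM1 in the total period (0.038). A fixed slide block turned SLC16A1 (−0.072), HK1 (0.18) and PFKM (−0.92) in the first period, a random one PGK1 in the total period (−0.0018), and slide 2 alone GPI (0.094). Leaving out 1 animal gave −0.12 to 0.040 for GPI in the first and −0.099 to 0.13 for SLC16A1 in the total period. The cause was not tested in any of these cases. Each enzyme has 1 probe, so averaging probes could change no member, and late comparisons could not be fitted with a fixed slide or scan day. Signal over background was lowest at the middle stage, which limits PKM most and leaves LDHB without a value.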
